A study of Mus musculus with 4 samples.

Results

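The lactate genes described here are 8 genes chosen by name: the monocarboxylate transporters Slc16a1 (MCT1), Slc16a3 (MCT4) and Slc16a7 (MCT2), their membrane chaperones Bsg (basigin) and Emb (embigin), and the lactate dehydrogenases Ldha, Ldhb and Ldhd. The deposited count files list 53465 genes, and all 8 were found by symbol. RNA came from ventricles of mouse pups at postnatal day 1, in 2 control and 2 knockout-labelled libraries. Mice of both groups had the same background, a cross of Ctnnb1 floxP/floxP with alphaMHC-Cre animals, and both copies of Ctnnb1, the gene for beta-catenin, were floxed in all 4. Controls (Ctnnb1floxP/floxP; alphaMHC-Cre-) lacked the Cre transgene. Knockout-labelled animals (Ctnnb1floxP/floxP; alphaMHC-Cre+) carried it, so the groups differ by the transgene as well as by any deletion. The alpha myosin heavy chain promoter drives Cre in cardiomyocytes, so other cells of the ventricle are not its target. The series asks how deletion of beta-catenin in these cells bears on energy metabolism around birth.

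Lactate dehydrogenase is a tetramer of A and B subunits that interconverts pyruvate and lactate with NADH as the partner. Assemblies rich in the A subunit are typical of glycolytic tissue and those rich in the B subunit of the adult heart. MCT1 and MCT4 move lactate with a proton across the plasma membrane and need basigin to get there, while embigin serves the same purpose for some transporters. Around birth the heart relies largely on glucose and lactate, and fatty acids become its main fuel later.

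The libraries held between 34027143 and 45651797 reads in genes. Some measures differed between the groups or singled out a library. Reads placed at more than 1 position made up 19.4% and 21.0% of the reads HTSeq handled in the controls, against 23.9% and 29.7% in the knockout-labelled libraries, and mitochondrially encoded genes took 5.25% and 7.65% against 10.2% and 14.4% of gene counts. Knockout-labelled library 2 was the only one with Xist at a high level (602 CPM, at most 0.327 CPM elsewhere). Its count of Kdm5d was 0, which allows up to 0.0882 CPM when scaled by the library total alone. Control 1 alone held T-cell transcripts in quantity: 8 markers summed to 315 CPM there and to between 1.42 and 6.09 CPM in the other 3 libraries, with Cd3e at 0 in knockout-labelled library 1. The highest of them in control 1 was Rag1, at 67.7 CPM, with Cd8a at 52.5 and Cd4 at 36.8 CPM. Whether these cells were mature or immature, and where they came from, was not tested. All 8 T-cell markers were lower in each knockout-labelled library than in either control. Of all genes tested, 29.7% lay below both controls in both knockout-labelled libraries and 26.5% above, shares that stand beside the marker counts here. Cardiomyocyte markers were abundant everywhere, and 6 of them summed to 44003 and 43393 CPM in the controls and to 59262 and 70779 CPM in the knockout-labelled libraries. Of these 6, 3 lay above both controls in both knockout-labelled libraries and 0 lay below. Among 8 erythroid markers, 5 lay below both controls and 1 above, and their sums were 1093 and 1124 CPM against 766 and 664 CPM. Of 5 macrophage markers 3 lay below and 1 above, with sums of 111 and 90.8 CPM against 77.0 and 92.7 CPM. The sum of 5 mural markers was 606 and 784 CPM against 1753 and 1509 CPM, with 1 marker above, Acta2, and 2 below. Fibroblast markers summed to 1363 and 2076 CPM against 2294 and 2247 CPM, with 1 of 5 above both controls and 0 below. Skeletal muscle markers summed to 1607 and 1251 CPM against 2103 and 2050 CPM, with 2 of 5, Ckm and Acta1, above and 0 below. Ckm alone read 1581 and 1210 CPM against 1983 and 1948 CPM, so the sum is largely that of 1 gene. Myod1 had 1 read in control 1 and 0 elsewhere, Myog had 19 and 11 reads against 13 and 1, and Tnnt3 overlapped between the groups. The 4 neuronal and Schwann markers summed to 10.7 and 14.3 CPM against 7.42 and 6.87 CPM, with 1 above and 2 below. Endothelial and neutrophil sums overlapped between the groups. With 4 to 8 markers per type, counts such as 1 or 2 cannot be set apart from the shares of all genes. The parts that mitochondrial reads, multiply placed reads, the Xist-high library and the content of these cell types have in the values of the lactate genes were not tested. Ctnnb1 itself was not lower: it read 409 and 434 CPM in the controls, against 527 and 460.1 CPM in the knockout-labelled libraries. That count covers the whole gene and every cell type, so it does not check the labels. In bulk RNA, a different number of cells of a type and a different amount of RNA per cell cannot be told apart. The labels do not say whether the libraries come from separate animals or pools, so p-values measure only the spread between these samples.

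The stretches upstream of 4 of these genes are shown because 3 of them, Slc16a1, Slc16a3 and Ldha, were the members with the smallest p-values and the fourth, Ldhb, is the paralog that Ldha is measured against. Each run is the 250 bases before the RefSeq gene start in GRCm38.p6, read 5′ to 3′ on the gene's strand, and capitals mark ACGTG or GCGTG on either strand. These letters are the core that hypoxia-inducible factors recognise, and ACGTG also lies within CACGTG, the E-box read by Myc and other factors. The RefSeq starts of Slc16a3 and Ldha used here lie inside the spans that GENCODE vM21 gives these genes, which begin further upstream. The windows are chr3:104638414-104638663 on the forward strand for Slc16a1, chr11:120948817-120949066 on the forward strand for Slc16a3, chr7:46845554-46845803 on the forward strand for Ldha and chr6:142507958-142508207 on the reverse strand for Ldhb.
Slc16a1: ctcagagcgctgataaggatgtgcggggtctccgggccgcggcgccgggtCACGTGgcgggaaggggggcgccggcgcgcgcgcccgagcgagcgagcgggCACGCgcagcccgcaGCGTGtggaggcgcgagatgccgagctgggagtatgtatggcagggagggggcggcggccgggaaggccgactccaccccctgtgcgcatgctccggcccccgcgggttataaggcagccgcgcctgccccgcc
Slc16a3: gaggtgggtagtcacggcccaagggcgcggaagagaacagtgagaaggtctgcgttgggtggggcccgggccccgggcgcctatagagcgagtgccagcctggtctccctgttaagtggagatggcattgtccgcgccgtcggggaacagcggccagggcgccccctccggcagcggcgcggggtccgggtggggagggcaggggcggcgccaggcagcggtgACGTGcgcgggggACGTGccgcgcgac
Ldha: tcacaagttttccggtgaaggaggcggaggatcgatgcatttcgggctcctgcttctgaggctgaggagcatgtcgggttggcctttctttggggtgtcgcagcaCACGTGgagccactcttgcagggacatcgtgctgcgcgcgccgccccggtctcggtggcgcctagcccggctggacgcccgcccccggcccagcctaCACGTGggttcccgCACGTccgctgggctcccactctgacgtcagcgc
Ldhb: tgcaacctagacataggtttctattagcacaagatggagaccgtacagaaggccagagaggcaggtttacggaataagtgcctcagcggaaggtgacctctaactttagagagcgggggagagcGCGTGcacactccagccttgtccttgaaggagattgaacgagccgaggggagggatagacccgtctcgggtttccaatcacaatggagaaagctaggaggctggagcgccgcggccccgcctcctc
Counting both strands, so that 1 palindromic CACGTG gives 2 matches of ACGTG, the Ldha window held 5 matches of ACGTG and 0 of GCGTG, with CACGTG present at 2 places. The Slc16a1 window held 2 and 2, the Slc16a3 window 2 and 0, and the Ldhb window 0 and 1. The 2 matches of Slc16a3 start 27 and 14 bases before the gene start. Among 32851 windows of this length in the RefSeq table, 38.6% held at least 1 match of either motif, 16.6% held ACGTG and 28.2% held GCGTG. At least 5 matches, the number in the Ldha window, were found in 1.01% of windows, at least 4 in 2.58% and at least 2 in 16.7%. These windows are rich in G and C (76.4%, 73.6%, 67.2% and 56.4% in the order printed), which bears on how often such letters occur. The second Ldha window of the table and that of Ldhd held 1 and 2 matches, and the Emb window 0. The table matched 6 of the 8 genes. A match is a description of the letters and not of a site in use.

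The members cover a wide range of levels. Per length of the principal transcript, in reads per kilobase scaled to library size (RPKM), Ldhb was the most abundant, with a mean of 863 over the 4 libraries (682 to 1071). Bsg followed at 536 (431 to 798) and Ldha at 446 (288 to 707). Slc16a1 stood at 42.7 RPKM (24.2 to 59.0) and Slc16a3 at 4.12 (1.74 to 8.04). The lowest were Emb at 1.74 (0.972 to 2.42), Ldhd at 1.57 (1.25 to 1.75) and Slc16a7 at 0.797 (0.603 to 0.926). The ranges of Emb and Ldhd overlapped, so their order is not resolved. Bsg and Ldha were apart in the controls, at 440 and 431 RPKM against 308 and 288, but overlapped in the knockout-labelled libraries, at 477 and 798 against 481 and 707. The order of the lowest 3 depends on the length used: with all annotated exons, Slc16a7 stood at 0.740 RPKM (0.560 to 0.859), Emb at 0.738 (0.411 to 1.02) and Ldhd at 0.668 (0.533 to 0.749), with overlapping ranges. On that length the Ldha values became 165 and 154 RPKM in the controls, against 257 and 377 in the knockout-labelled libraries, because its exons add up to 3310 bases against 1766 in the principal transcript.

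**Figure D1:**
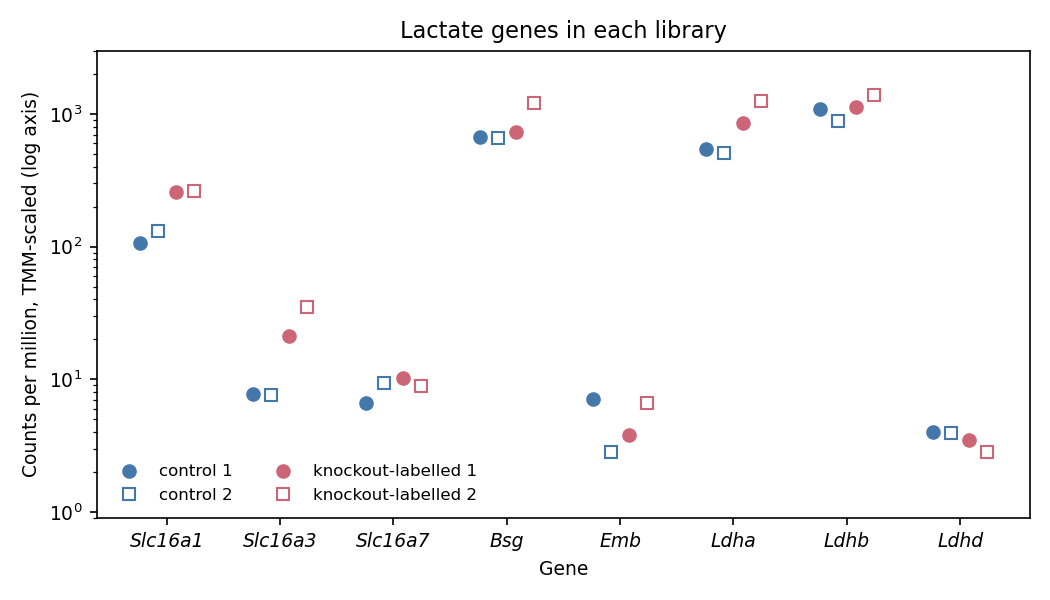
CPM (reads scaled to library size with TMM, log axis) of the 8 lactate genes, 1 point per library, blue for control and red for knockout-labelled, circles for replicate 1 and squares for replicate 2. Both red points lie above both blue ones for Slc16a1, Slc16a3, Bsg, Ldha and Ldhb and below both for Ldhd.

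Of the 3 proton-coupled transporters, Slc16a3 and Slc16a1 had more reads in the knockout-labelled libraries, and the groups overlapped for Slc16a7. Slc16a3 (ENSMUSG00000025161.16, chromosome 11, 120948480 to 120960868), the low-affinity carrier that glycolytic cells use for export, had 361 and 370 reads in controls 1 and 2, against 942 and 1030 in the knockout-labelled pair. Scaled by library with TMM, edgeR's trimmed mean method, these were 7.74 and 7.56 CPM against 21.2 and 34.8 CPM. The controls were nearly equal, while the knockout-labelled libraries differed from each other by a ratio of 1.64, and the groups did not overlap. The fitted fold was 3.66 (95% interval 2.26 to 5.93; log2 1.87 ± 0.29, SE, n = 2 each; adjusted p = 0.0925, edgeR, quasi-likelihood, Benjamini-Hochberg over all genes tested). Without knockout-labelled library 2 the log2 value was 1.48, and without knockout-labelled library 1 it was 2.24.

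Slc16a1 (ENSMUSG00000032902.1, chromosome 3, 104638668 to 104658462), the high-affinity carrier that can import or export lactate and is the main one of heart muscle, had 107 and 131 CPM in the controls, against 257 and 261 CPM in the knockout-labelled libraries. Here the knockout-labelled libraries were the pair that nearly coincided, and again the groups did not overlap. The fitted fold was 2.18 (95% interval 1.58 to 2.99; log2 1.12 ± 0.19; adjusted p = 0.0925, edgeR). That adjusted p is the smallest one above the threshold of 0.05, and 616 genes share it. Leaving out each library in turn gave log2 values from 0.98 to 1.28, and leaving out knockout-labelled library 2 gave 1.12.

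Slc16a7 (chromosome 10, 125219270 to 125389465), a carrier with a high affinity for pyruvate and lactate, was scarce. It had 6.63 and 9.40 CPM in the controls, against 10.2 and 8.83 CPM in the knockout-labelled libraries, so the groups overlapped. Its fold was 1.19 with an interval from 0.735 to 1.91 (adjusted p = 0.640, edgeR). Among the 3 carriers, Slc16a1 took most of the summed RPKM: 91.0% and 91.9% in the controls, against 90.9% and 87.0% in the knockout-labelled libraries. The share of Slc16a3 was 6.71% and 5.43% in the controls, then 7.67% and 11.8%. That of Slc16a7 was 2.27% and 2.66% in the controls, against 1.45% and 1.19% in the knockout-labelled libraries. Their summed level was 26.6 and 32.1 RPKM in the controls, against 63.9 and 67.8 RPKM in the knockout-labelled libraries.

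The chaperones showed smaller or less regular differences. Bsg (ENSMUSG00000023175.15, chromosome 10, 79704491 to 79711969) had 671 and 658 CPM in the controls, against 728 and 1217 CPM in the knockout-labelled libraries. Only knockout-labelled library 2 stood well above the others. The fold was 1.46 with an interval from 0.884 to 2.42 (log2 0.55 ± 0.30; adjusted p = 0.319, edgeR), and the log2 value was 0.14 without that library and 0.93 without knockout-labelled library 1. With library totals in place of TMM the groups overlapped, at 722 and 721 CPM against 707 and 1058 CPM. Bsg exceeded its carriers many times over: its RPKM was 16.5 and 13.4 times the sum of the 3 carriers in the controls and 7.47 and 11.8 times in the knockout-labelled libraries.

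Emb (ENSMUSG00000021728.8, chromosome 13, 117208536 to 117274415) varied within each group more than between them. It had 7.08 and 2.84 CPM in the controls, against 3.81 and 6.66 CPM in the knockout-labelled libraries. The high control was library 1, which also held the T-cell transcripts given above, and the part of those cells in the Emb value was not tested. The log2 fold change was 0.076 ± 0.52 with an interval from -1.19 to 1.34 (adjusted p = 0.946, edgeR). Leaving out control 1 gave 0.88, leaving out control 2 gave -0.43 and leaving out knockout-labelled library 2 gave -0.37, while library totals gave -0.18, so no direction can be given. Exons of Emb overlap those of Gm17509 on the opposite strand over 686 bases. The kit keeps strand, but whether the counting used it is not given in the sources used here.

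Of the dehydrogenases, Ldha was about 2 times as abundant in the knockout-labelled libraries, and Ldhb differed less. Ldha (ENSMUSG00000063229.15, chromosome 7, 46841475 to 46855627), the subunit that predominates in glycolytic tissue, had 545 and 508 CPM in the controls, against 850.0 and 1248 CPM in the knockout-labelled libraries. The controls lay close together, and both knockout-labelled libraries lay above them at unequal distances. The fold was 1.99 (95% interval 1.27 to 3.12; log2 0.99 ± 0.26; adjusted p = 0.120, edgeR). The log2 value was 0.70 without knockout-labelled library 2 and 1.30 without knockout-labelled library 1.

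Ldhb (ENSMUSG00000030246.11, chromosome 6, 142490249 to 142507957), the subunit of oxidative muscle, had 1092 and 889 CPM in the controls, against 1124 and 1397 CPM in the knockout-labelled libraries. Control 1 and knockout-labelled library 1 were almost equal. The fold was 1.27 with an interval from 0.831 to 1.95 (adjusted p = 0.451, edgeR). With library totals the groups overlapped, at 1176 and 975 CPM against 1091 and 1214 CPM. Without knockout-labelled library 1 the log2 value was 0.55, and without knockout-labelled library 2 it was 0.19.

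Ldhd (chromosome 8, 111623785 to 111630374) encodes the mitochondrial enzyme that oxidises D-lactate. It was the only member lower in both knockout-labelled libraries, with 186 and 191 reads in the controls, against 155 and 84 in the knockout-labelled libraries, or 3.99 and 3.90 CPM against 3.50 and 2.84 CPM. The exact Poisson interval of the last count was 67.0 to 104 reads, for counting error only. The fold was 0.804 with an interval from 0.475 to 1.36 (adjusted p = 0.583, edgeR), and the log2 value was -0.042 once trends with GC content and length were removed. Exons of Ldhd overlap those of Znrf1 on the opposite strand over 2246 bases, so its reads are uncertain in the same way as those of Emb. The same holds for Slc16a7 over 179 bases shared with Gm47862.

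**Figure D2:**
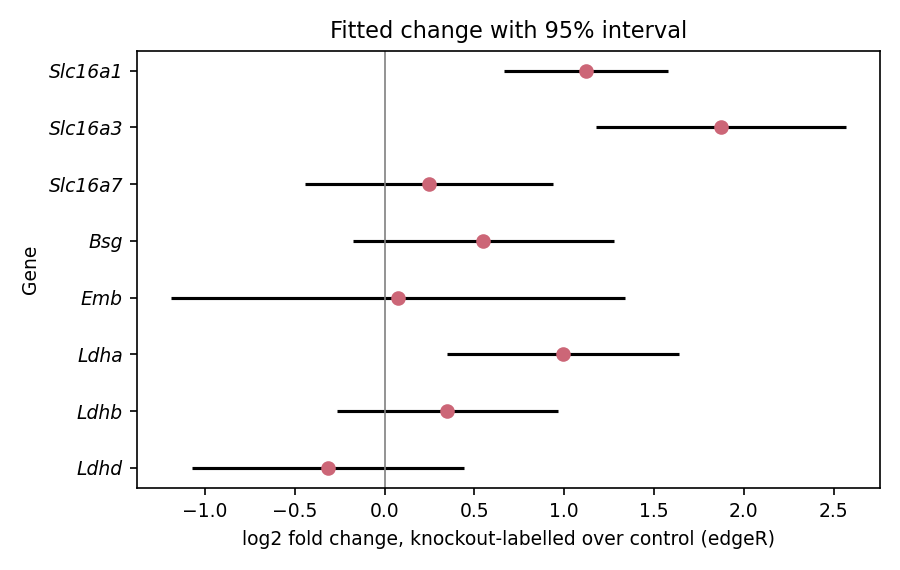
Fitted log2 fold change of each lactate gene, knockout-labelled over control, from edgeR; points are the estimates and lines the 95% intervals (2 libraries per group). The intervals of Slc16a1, Slc16a3 and Ldha lie above 0, from 0.66, 1.18 and 0.35 upward, and those of the other genes include 0.

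The ratio of Ldha to Ldhb reads asks how the dehydrogenase transcripts are balanced within a library and does not depend on how libraries are scaled. It was 0.499 in control 1, 0.572 in control 2, 0.756 in knockout-labelled library 1 and 0.893 in knockout-labelled library 2. Ldhb therefore had more reads than Ldha in every library, and each knockout-labelled library exceeded each control. The means were 0.535 ± 0.0516 and 0.825 ± 0.0969 (SD, n = 2 each), a difference of 0.62 on the log2 scale, against gaps between replicates of 0.20 in the controls and 0.24 in the knockout-labelled libraries. A two-sided exact permutation test gave p = 0.333, the smallest value that 2 against 2 libraries allow (adjusted p = 0.389 over the 7 ratios computed). As a share of all Ldha and Ldhb reads, Ldha took 33.3% (Wilson 95% interval 32.9% to 33.6%) and 36.4% (36.0% to 36.7%) in the controls. In the knockout-labelled libraries it took 43.1% (42.7% to 43.4%) and 47.2% (46.8% to 47.5%). These intervals cover counting error only. Per length of the principal transcripts the ratio was 0.368, 0.422, 0.558 and 0.660 in the same order of libraries.

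Copies of these genes could draw reads away. Ldha has 13 processed pseudogenes that match its transcript at 90% identity or more over at least 200 bases, and Ldhb has 1, Gm5514, at 98.0% identity over 1002 bases. The Ldha copies held 121, 133, 313 and 271 reads in the libraries in the order above, and Gm5514 held 243, 249, 484 and 372. Relative to the reads of the gene itself, these were 0.476%, 0.535%, 0.831% and 0.734% for Ldha and 0.477%, 0.572%, 0.971% and 0.901% for Ldhb. With the copies' reads added, the ratio of Ldha to Ldhb was 0.499, 0.571, 0.755 and 0.892. Reads placed at more than 1 position belong to no gene in these counts, and their part in the Ldha and Ldhb values was not tested.

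Among the 6 other ratios, that of Slc16a3 to Bsg was the steadiest within a group. It was 0.0115 in each control, then 0.0292 and 0.0286 in knockout-labelled libraries 1 and 2, although CPM of both genes differed between those libraries by a ratio of 1.64 for Slc16a3 and 1.67 for Bsg. Slc16a3 to Slc16a1 was 0.0722 and 0.0578 in the controls, against 0.0827 and 0.133 in the knockout-labelled libraries. The gap between the knockout-labelled replicates, 0.69 on the log2 scale, nearly equalled the difference between the groups of 0.70. Slc16a1 to Ldha overlapped between the groups, at 0.197 and 0.257 against 0.302 and 0.209 (two-sided exact permutation p = 0.667). The exact permutation p was 0.333 for the other 5 ratios, and all 6 have adjusted values of 0.389 or 0.667.

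**Figure D3:**
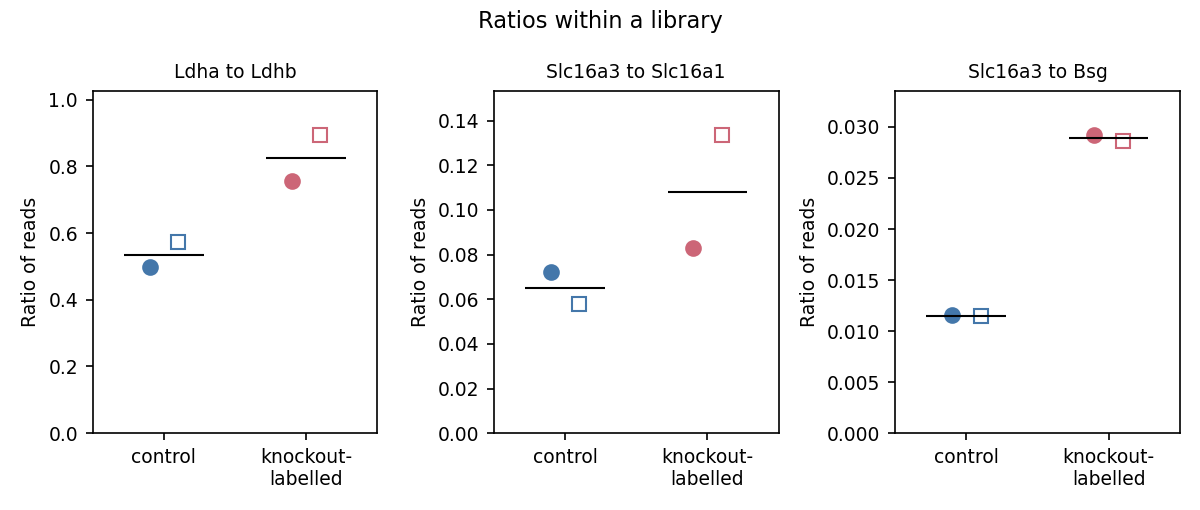
Ratio of raw reads within each library for Ldha to Ldhb, Slc16a3 to Slc16a1 and Slc16a3 to Bsg, 1 point per library (circle for replicate 1, square for replicate 2), with the group mean as a line. The knockout-labelled points lie above the controls in each panel, and the replicates of Slc16a3 to Bsg nearly coincide at 0.0115 in the controls and at 0.0292 and 0.0286 in the knockout-labelled libraries.

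Over the whole table few genes passed the main test. All 8 lactate genes were among the 18157 genes kept by the filter on low counts, and 0 of them passed at an adjusted p under 0.05 with edgeR, where 0.011% of all genes passed as higher and 0% as lower. At an unadjusted p under 0.05 edgeR had 3 of 8 higher and 0 lower, namely Slc16a1, Slc16a3 and Ldha, beside 11.8% of all genes higher and 11.2% lower. DESeq2 called the same 3 genes higher and 0 lower at the adjusted threshold, with 1.62e-05 for Slc16a1, 1.35e-06 for Slc16a3 and 0.00293 for Ldha, beside 5.58% of the genes it tested called higher and 4.43% lower. The authors' deposited table gives log2 fold changes of 1.144, 1.896 and 1.018 for these genes, with adjusted p-values of 1.64e-05, 1.29e-06 and 0.00282. Limma-voom passed 0 of the 8 and had the same number as edgeR, 3, at an unadjusted p under 0.05. With no filter on low counts edgeR called 2 of 8 higher, Slc16a1 and Slc16a3 (adjusted p = 0.0301 and 0.0180), beside 0.978% of genes. The groups did not overlap, with knockout-labelled libraries higher, for 5 of 8 and with them lower for 1, beside 26.5% and 29.7% of all genes. With library totals, the numbers were 3 and 1, beside 15.3% and 44.8% of all genes. The median log2 fold change was 0.45 over the 8 genes and -0.02 over all genes tested. Scaling by library totals shifted the median of all genes by -0.24. The log2 values with library totals were 1.61 for Slc16a3, 0.88 for Slc16a1 and 0.74 for Ldha. Relative to the median of all genes they stood 1.89, 1.14 and 1.02 higher with TMM and 1.87, 1.14 and 1.00 higher with library totals. A change of scale moves all genes by nearly the same amount. These relative values therefore had to stay nearly equal and do not test the scaling.

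**Figure D4:**
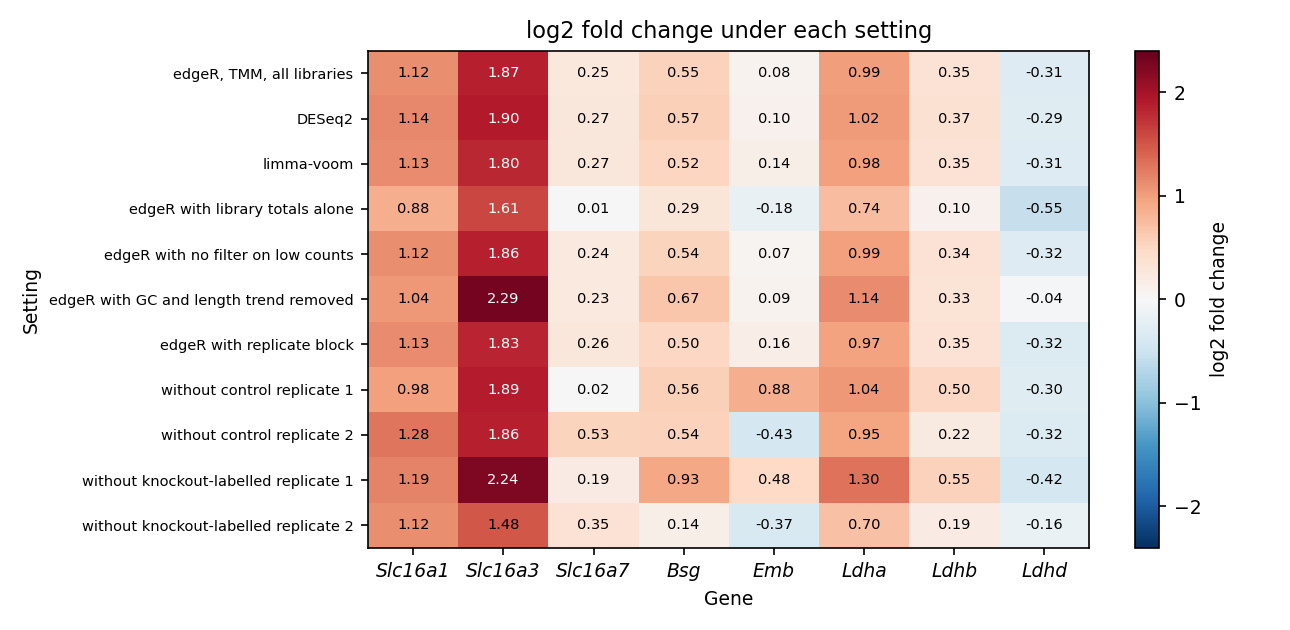
Log2 fold change of each lactate gene (columns) under each setting (rows), with the value printed and coloured from blue (lower in the knockout-labelled libraries) to red (higher). Slc16a1, Slc16a3, Slc16a7, Bsg, Ldha and Ldhb are above 0 in every row shown, down to 0.0087 for Slc16a7 with library totals. Ldhd is below 0 in every row, and Emb is below 0 in 3 of them.

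The profiles of the carriers over the 4 libraries were set beside those of 9440 other protein-coding genes with a mean of at least 10 CPM over the 4 libraries, by the distance between log2 CPM values centred on each gene's mean. For Slc16a3 the nearest were Gm2000 (distance 0.248), Gm11273 (0.258), Ppa1 (0.264), Uchl1 (0.313) and Gm11808 (0.331). Gm2000, Gm11273 and Gm11808 were under 10 CPM in both controls and met that minimum through the knockout-labelled libraries, as did 4930452B06Rik below. Ppa1 encodes a cytosolic pyrophosphatase and Uchl1 a ubiquitin hydrolase, and Ppa1 read 12.4 and 11.1 CPM in the controls, against 26.7 and 46.5 CPM in the knockout-labelled libraries. For Slc16a1 the nearest was Actc1, the cardiac actin, at a distance of 0.0951. Actc1 is also 1 of the 6 cardiomyocyte markers, and it read 6227 and 7453 CPM in the controls, against 14114 and 15710.2 CPM in the knockout-labelled libraries. Next to it came Dstn (0.146), an actin-severing protein, Rrm1 (0.175), a ribonucleotide reductase subunit, Jpt2 (0.179) and 4930452B06Rik (0.181). Among the lactate genes themselves, Bsg and Ldhb were nearest to each other (0.390), followed by Bsg and Ldha (0.487) and by Slc16a1 and Ldha (0.491). These distances rest on 4 libraries and are a description only.

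Genes next to lactate in metabolism were read from lists drawn up by function. In edgeR 0 of their members passed, beside 0.011% of all genes higher and 0% lower. DESeq2 called 18 members higher and 1 lower, beside 5.58% and 4.43% of all the genes it tested. The higher ones were 8 of 18 for pyruvate supply and mitochondrial entry, 5 of 17 for glucose uptake and glycolysis, 3 of 11 for NADH shuttles and 2 of 8 partners of the carriers. It called 0 higher in the remaining lists. Of 13 other SLC16 and sodium-coupled carriers, 10 were tested, and edgeR had 1 on each side at an unadjusted p under 0.05, beside 11.8% of all genes higher and 11.2% lower, while DESeq2 called 0. The higher one was Slc16a6, at 9.01 and 7.56 CPM in the controls, against 14.1 and 12.3 CPM in the knockout-labelled libraries. The lower one was Slc16a5, a carrier of the same family, which had 8.23 CPM in control 1, the library with T-cell transcripts, and at most 0.361 CPM elsewhere. Its log2 fold change was -3.87 with all libraries and 0.11 without control 1, and the part of T cells in it was not tested. Of the other dehydrogenase-like genes only Uevld was tested (log2 0.17 ± 0.27), and the testis form Ldhc had at most 0.0226 CPM. Glo1 and Hagh, the glyoxalases that lead to D-lactate, had log2 values of 0.038 ± 0.21 and 0.24 ± 0.27. The list's median was 0.09 for the carriers and 0.14 for the glyoxalases.

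Genes that supply pyruvate, admit it to mitochondria or regulate its use there were read next. The list includes Pdk1, Pdk2, Pdk3 and Pdk4, kinases that inhibit pyruvate dehydrogenase. At an unadjusted p under 0.05 edgeR had 11 of 18 higher and 1 lower, beside 11.8% and 11.2% of all genes. The higher ones include the kinases Pdk1 (log2 0.51) and Pdk3 (0.64), and the lower one was the kinase Pdk2 (-0.69). Pdk4, at -0.55, did not pass. DESeq2 called 8 and 0 at its adjusted threshold, beside 5.58% and 4.43%, and the median log2 value of the list was 0.54. Dld, the dihydrolipoamide dehydrogenase of the pyruvate complex, had a log2 value of 0.97 ± 0.18 (adjusted p = 0.0925, edgeR), and Pdhx, which holds that enzyme in the complex, 0.82 ± 0.20 (adjusted p = 0.107, edgeR). Of 11 genes listed for the shuttles that carry cytosolic NADH equivalents, 3 passed the unadjusted edgeR threshold as higher and 1 as lower. These stand beside 11.8% and 11.2% of all genes, and the list's median was 0.54. DESeq2 called 3 higher and 1 lower, beside 5.58% and 4.43%. Slc25a11, the oxoglutarate carrier of the malate-aspartate shuttle, had a log2 value of 0.69 ± 0.19. The lower one was Slc25a22, a glutamate carrier listed with these genes although it is not a component of the malate-aspartate shuttle. Slc25a22 had -1.15 ± 0.19, at 42.1 and 41.4 CPM in the controls, against 16.7 and 21.0 CPM in the knockout-labelled libraries. Of 17 genes of glucose uptake and glycolysis, 9 passed the unadjusted threshold as higher and 0 as lower, again beside 11.8% and 11.2% of all genes (median 0.60). DESeq2 called 5 of them higher and 0 lower, beside 5.58% and 4.43% of the genes it tested. The smallest p-values were those of Aldoc, with a log2 value of 1.37 ± 0.23, and Pgk1, with 1.16 ± 0.20.

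Partners and regulators of the lactate genes had lower medians, 0.23 and 0.11. At the unadjusted threshold edgeR had 2 of 8 partners higher and 1 lower, beside 11.8% and 11.2% of all genes. With 8 genes these counts are too small to set apart from those shares. Ppia, the cyclophilin that binds basigin, had a log2 value of 0.84 ± 0.26 and Slc7a5, an amino acid carrier found with basigin, 0.78 ± 0.23 (adjusted p = 0.141 and 0.136, edgeR). Of 15 regulators, 1 passed that threshold as higher and 0 as lower, shares no larger than those of all genes. This was Hif1a, the oxygen-sensitive factor known to act on Ldha and Slc16a3, at 70.5 and 87.2 CPM in the controls, against 139.6 and 109 CPM in the knockout-labelled libraries (log2 0.66 ± 0.21; adjusted p = 0.145, edgeR). Egln3, a prolyl hydroxylase that marks that factor for breakdown and is itself a target of it, had 0.54 ± 0.23 (adjusted p = 0.230, edgeR). Other listed genes of that pathway had log2 values of -0.16 (Epas1), -0.13 (Arnt), 0.16 (Egln1) and 0.071 (Vhl). Whether the factor has a part in the values of the lactate genes was not tested.

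**Figure D5:**
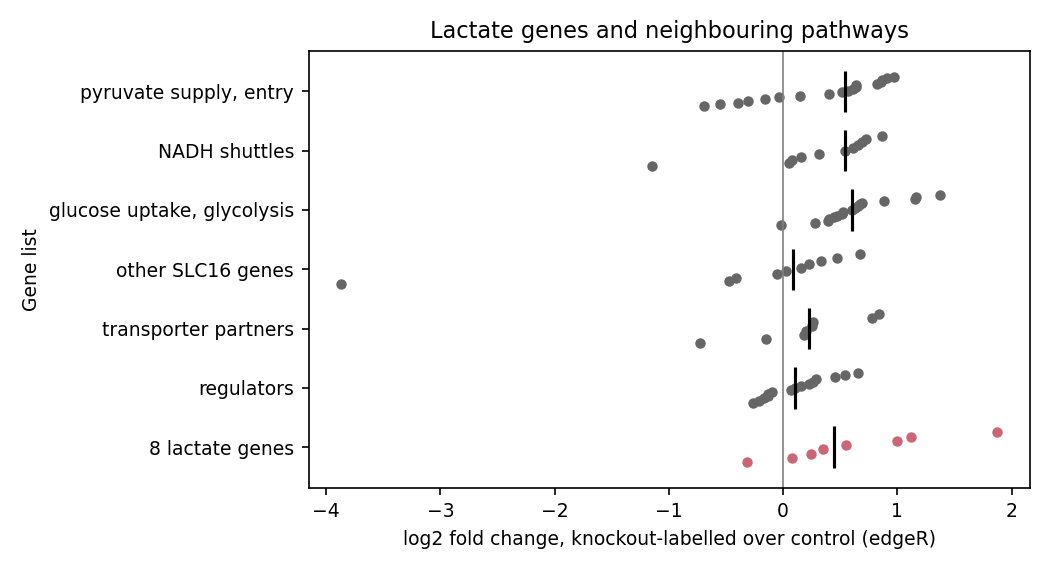
Log2 fold change (edgeR, knockout-labelled over control) of each tested gene in 6 neighbouring lists (grey) and of the 8 lactate genes (red), 1 point per gene, with the list's median as a black line. The medians of glycolysis (0.60), pyruvate genes (0.54) and shuttles (0.54) lie near that of the lactate genes (0.45), and the point at -3.87 is Slc16a5.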

How the data were processed

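RNA was selected for poly(A) and made into 4 libraries with a stranded kit, per the labels' protocols. The submitters' processing notes name bcl2fastq 2.16.0.10, FastQC 0.11.5, STAR 2.5.3a, HTSeq 0.6.1 and GRCm38. Values in the deposited count files are unscaled whole numbers for each gene. Neither the annotation release nor the strand setting is given in the sources used here. The authors' deposited table repeats these counts and adds log2 fold changes and adjusted p-values, for which the notes name DESeq2 1.18. Its 4 normalized per-sample columns were not used.

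Identifiers were matched to GENCODE vM21 (53360 of 53465). The 5 HTSeq summary categories stayed out of library sizes. In R 4.3.3, edgeR 4.0.16 (filterByExpr, TMM, quasi-likelihood test, Benjamini-Hochberg over 18157 genes, threshold 0.05) gave the main result, and DESeq2 1.42.0, limma-voom (limma 3.58.1), other scalings, no filter, removal of GC content and length trends (mgcv), the replicate number as a block and leaving out each library were alternatives. Scripts were tested on simulated data. Principal transcripts were those of APPRIS, and copies were found with blastn 2.17.0. The genes, lists and tests were chosen with earlier results of these data known. All 8 lactate genes are named, and from each list the 2 genes with the smallest p where 0 passed, together with the 5 nearest profiles of the 2 members with the largest changes. Ldhc, Xist, Kdm5d, Epas1, Arnt, Egln1 and Vhl were named after their values were seen. Every ± after a log2 value is an SE.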

Additional observations from a re-analysis of the deposited data

How the results depend on the processing

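Over all genes, edgeR called 2 higher and 0 lower. Other settings called 1706 genes in all (DESeq2), 554 (no filter on low counts), 18 (9 higher, 9 lower, with the replicate block) and 0 (limma-voom, which at the unadjusted threshold had 2087 higher, 1948 lower). Leaving out 1 library gave 0 to 30: 0 without control 1 or knockout-labelled library 2, 15 without knockout-labelled library 1 and 30 without control 2. Of the 8 lactate genes, edgeR passed 0 (3 at an unadjusted p under 0.05), DESeq2 3, edgeR with no filter 2, and each fit without 1 library 0, the lowest and the highest being 0. Under DESeq2 the log2 values were 1.14 for Slc16a1, 1.90 for Slc16a3 and 1.02 for Ldha. With no filter they were 1.12 and 1.86 for Slc16a1 and Slc16a3, where more genes were tested. The list members called numbered 19 under DESeq2, 18 higher and 1 lower, with the number tested per list given above. Over all the genes it tested, 5.58% were called higher and 4.43% lower. Emb was -0.18 with library totals and ranged from -0.43 to 0.88 without 1 library. The cause of these differences was not tested. Every other member kept its direction under all 11 alternatives.

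The replicate numbers share only a number. Deviations of control 1 and knockout-labelled 1 from their group means correlated at -0.116 over 18157 genes, and the block left 0 lactate genes passing. A crossed pairing, added after seeing the data, called 941 genes over the table and 2 of the 8. The log2 difference in the ratio of Ldha to Ldhb was 0.62, from 0.50 to 0.74 without 1 library, 0.62 with pseudogene reads added and 0.81 with GC content and length trends removed. With 1 library left in a group, its spread is assumed to be that of the other. Reads were fewest for Ldhd and Emb, at 84 to 191 and 139 to 330. The controls differed by more than counting error for Emb, with exact Poisson intervals of 295 to 368 reads in control 1 and 117 to 164 in control 2. The same held for Slc16a1 (4860 to 5139 against 6243 to 6558), Slc16a7 (275.5 to 345.4 against 418.9 to 504) and Ldhb (50475 to 51360 against 43092 to 43911).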
